A study of Homo sapiens with 4 samples.

Results

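The clustered histone genes are the replication-dependent histone genes that lie side by side in a few genomic clusters, most of them in the large HIST1 cluster. They were taken as every non-control probe whose gene name in the array annotation begins with HIST1H, HIST2H, HIST3H or HIST4H, which gave 80 probes for 68 genes among the 27193 gene names on the array. By the histone in their names, the genes fall into H1 (6 genes, 6 probes) and H2A (15 genes, 18 probes). The others are H2B (19 genes, 23 probes), H3 (13 genes, 14 probes) and H4 (15 genes, 19 probes). By cluster, 63 probes belong to HIST1, 13 to HIST2, 3 to HIST3 and 1 to HIST4.

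The cells were THP1, a human monoblastic acute myeloid leukemia (AML) cell line that carries the MLL-AF9 fusion gene. They received a single transfection of 30 nM of a synthetic double-stranded miRNA mimic, either miR-511-5p mimic or control-mimic-#1, and RNA was taken on day 2. There were 2 independent experiments, and each gave 1 array per treatment, so that 4 arrays with 1 dye (Cy3) were available, 2 per treatment and 2 per experiment. All 4 arrays are of the same cell line, which was kept in medium with little serum after transfection, and none is of untransfected cells.

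H2A, H2B, H3 and H4 are the core histones around which DNA is wrapped in the nucleosome, and H1 is the linker histone that binds where DNA enters and leaves it. The clustered genes are transcribed when DNA is replicated, with NPAT as a shared coactivator and HINFP as a transcription factor of H4 genes. Their mRNAs have no introns and, in place of a poly(A) tail, end in a conserved stem-loop that is bound by SLBP. Some of the genes can also yield polyadenylated transcripts. The copies of one class encode the same or nearly the same protein, so their coding sequences are similar, and probes of different copies may bind the same RNA.

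The ends of 6 member probes lay on the stem-loop itself, and these windows are shown because they are what makes a histone mRNA recognisable. The capitals mark a perfect inverted repeat of 6 bases on each side of a loop of 4 bases that begins with TTT.
HIST1H2AI: ccaaaGGCTCTTTTCAGAGCCacc
HIST1H2BE: ccaaaGGCTCTTTTCAGAGCCact
HIST1H2BF: ccaaaGGCTCTTTTAAGAGCCa
HIST1H3H: ccaaaGGCTCTTTTCAGAGCCacc
HIST2H3A: caaaaGGCTCTTTTCAGAGCCacc
HIST1H4K: caaaaGGCCCTTTTTAGGGCCcc
Such a repeat, starting with GG, was found in 7 of the 34127 probes of the array (0.0205%), and 6 of those 7 were clustered histone probes. All 6 were well above background on all 4 arrays. Whether the RNA behind their signal was polyadenylated was not analysed here.

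The mimic used has the mature sequence below as given by RefSeq, with the seed (bases 2 to 8) in capitals.
hsa-miR-511-5p: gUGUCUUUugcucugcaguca
The complement of the seed, AAAGACA, was in 0 of the 80 member probes and in 331 of the 34127 probes of the array (0.970%). This covers only the 60 bases of each probe and not the rest of the transcripts.

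**Figure D1:**
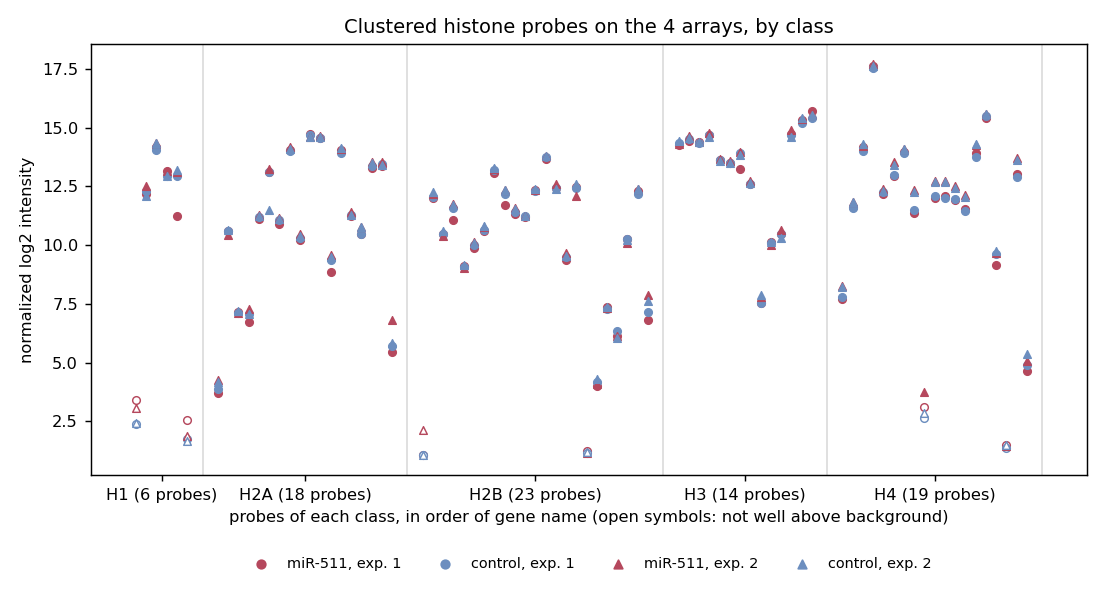
Normalized log2 intensity (y axis) of the 80 clustered histone probes (x axis, in order of gene name within each class) on each of the 4 arrays. Circles are experiment 1, triangles experiment 2, red miR-511-5p mimic, blue control-mimic-#1, and open symbols are values not well above background. The 4 symbols of most probes lie on top of each other, and 5 probes have open symbols on all 4 arrays.

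Clustered histone transcripts were detected nearly throughout the family. Of the 80 probes, 74 were well above background on all 4 arrays, and these 74 probes stood for 62 of the 68 genes. Between 64.8% and 69.3% of all probes on the array were well above background per array. Of the 34127 probes, 21609 were well above background on all 4 arrays with a value on each. No member spot was saturated, and none was marked as an outlier by the scanner software.

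All H2A probes (18 of 18) and all H3 probes (14 of 14) were well above background on every array, as were 21 of 23 H2B probes, 17 of 19 H4 probes and 4 of 6 H1 probes. On all 4 arrays the signal was not well above background for HIST1H1A and HIST1H1T (the testis-specific linker histone), HIST1H2BA (a testis-specific H2B), HIST2H2BA and HIST2H4A. The annotation gives no genome position for the probes of HIST2H2BA (now H2BP1) and HIST2H4A. A low signal there need not mean that these genes were silent. HIST1H4G was well above background with miR-511-5p mimic in experiment 2 alone. No fold change is given for these 6 probes.

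The probes of the other genes known from testis were well above background. HIST1H2AA, a testis-enriched H2A, lay close to background, with log2 values of 3.71 and 4.24 with miR-511-5p mimic and 3.86 and 4.17 with control-mimic-#1 in experiments 1 and 2. HIST3H3, the testis-type H3, had log2 values of 15.71 and 15.55 with miR-511-5p mimic and 15.42 and 15.52 with control-mimic-#1. Its signal was thus high on every array, but RNA of other H3 copies may bind this single probe, which was not tested.

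Mean normalized log2 values over the 4 arrays ranged from 12.27 to 14.23 for the detected H1 probes, from 3.99 to 14.65 for H2A, from 4.13 to 13.75 for H2B, from 7.69 to 15.55 for H3 and from 4.99 to 17.63 for H4. An array level depends on the probe as well as on the RNA, so probes are not compared with each other. HIST1H4C, a replication-dependent H4 gene, was at 17.64 and 17.73 with miR-511-5p mimic and at 17.53 and 17.64 with control-mimic-#1 in experiments 1 and 2. The H1 genes HIST1H1C and HIST1H1B lay between 14.06 and 14.34 and between 12.10 and 12.51, respectively.

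The first comparison asked whether histone transcripts differed between cells with miR-511-5p mimic and cells with control-mimic-#1. None of the 74 tested probes was past the threshold used here, an unadjusted limma p below 0.05. Of all 22638 tested probes, 2.2% were (498 probes). This fit has no term for the experiment, so a shift between the experiments, as in H4 below, adds to its error. The smallest unadjusted p of a member was 0.0637 and no member passed Benjamini-Hochberg adjustment in limma, where the smallest adjusted p was 1.00. The median log2 fold change (log2FC, miR-511-5p mimic minus control) was -0.0024 for the histone probes and 0.0098 for all tested probes. Its median size, without sign, was 0.048 for the histone probes and 0.079 for all tested probes.

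By direction, 35 histone probes were higher and 39 lower with miR-511-5p mimic on average. Medians of log2FC were 0.10 for the 4 detected H1 probes, -0.0027 for H2A, -0.045 for H2B, 0.043 for H3 and 0.023 for H4. The H2B class had 18 of 21 probes on the lower side, but 7 of the 21 had the same sign in both experiments. For all classes, the sign was the same in both experiments for 27 of 74 probes, against 51.0% of all tested probes. Across the 74 probes, which share the 4 arrays and are not independent, the log2FC of experiment 1 and of experiment 2 had a Pearson correlation of 0.015.

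HIST1H1D, a linker histone measured at chr6:26234699-26234758 of hg19 on the minus strand, had the smallest p. It was at 13.15 and 13.18 with miR-511-5p mimic and at 12.94 and 12.94 with control-mimic-#1 in experiments 1 and 2. The treated arrays were thus above the control arrays in both experiments, by 0.21 and 0.23 on the log2 scale. The mean difference was 0.22 (standard error 0.088, adjusted p = 1.00 from limma). It passed the unadjusted threshold after normexp background correction (log2FC 0.27), with no filter on dim probes and with an intensity trend in eBayes.

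HIST4H4, the H4 gene outside the large clusters (chr12:14924006-14924065 of hg19, minus strand), was at 4.63 and 5.08 with miR-511-5p mimic and at 4.90 and 5.35 with control-mimic-#1. These values are low, as the lowest log2 values well above background lay between 2.98 and 3.44 over the arrays. HIST4H4 was lower with miR-511-5p mimic by 0.27 on the log2 scale in both experiments, while both treatments were higher in experiment 2. It was not past the unadjusted threshold of limma, but passed it in a fit with a replicate block, in which the arrays of one experiment are paired. In that fit HIST4H4 was the 1 histone probe of 74 past it, against 3.95% of all tested probes.

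**Figure D2:**
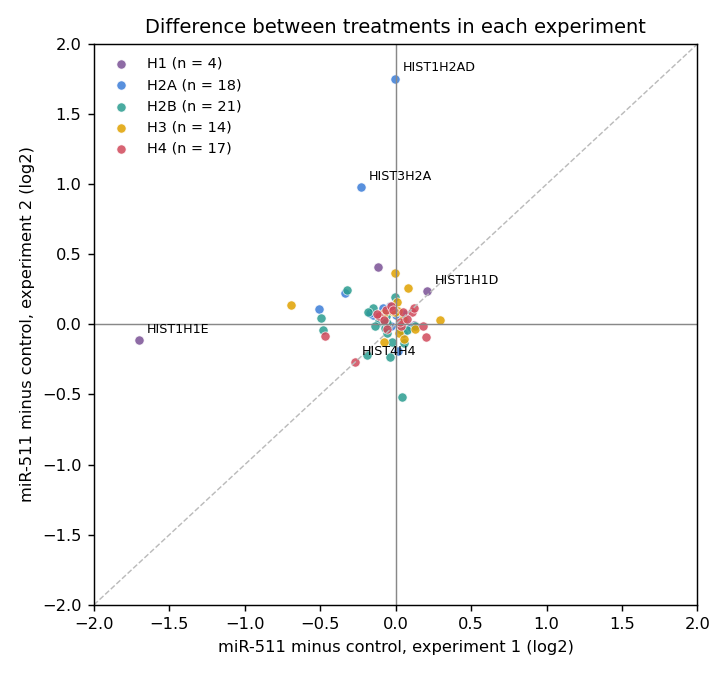
Log2 difference between miR-511-5p mimic and control-mimic-#1 in experiment 1 (x axis) and in experiment 2 (y axis) for the 74 tested histone probes, coloured by class, with n the number of probes. The dashed line marks equal differences. Most points lie close to 0 on both axes, and HIST1H1E, HIST1H2AD and HIST3H2A lie far out on 1 axis each.

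Larger differences between the treatments came from probes with 1 array apart from the other 3. HIST1H1E, a linker histone, was at 11.24 with miR-511-5p mimic in experiment 1 and at 12.94, 13.10 and 13.22 on the other arrays. Its log2FC was therefore -1.70 in experiment 1 and -0.11 in experiment 2, with a mean of -0.91 (standard error 0.66). HIST1H2AD, an H2A gene, was at 11.48 with control-mimic-#1 in experiment 2 and between 13.09 and 13.23 on the others, which made its log2FC -0.0041 in experiment 1 and 1.75 in experiment 2. HIST3H2A was at 6.83 with miR-511-5p mimic in experiment 2 and between 5.46 and 5.85 on the others. A value more than 1 from the median of the other 3 arrays was found for these 3 of 74 histone probes (4.05%) and for 3.41% of all tested probes. Each of the 3 genes has a single probe printed once, so the value on the array apart has no second spot.

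**Figure D3:**
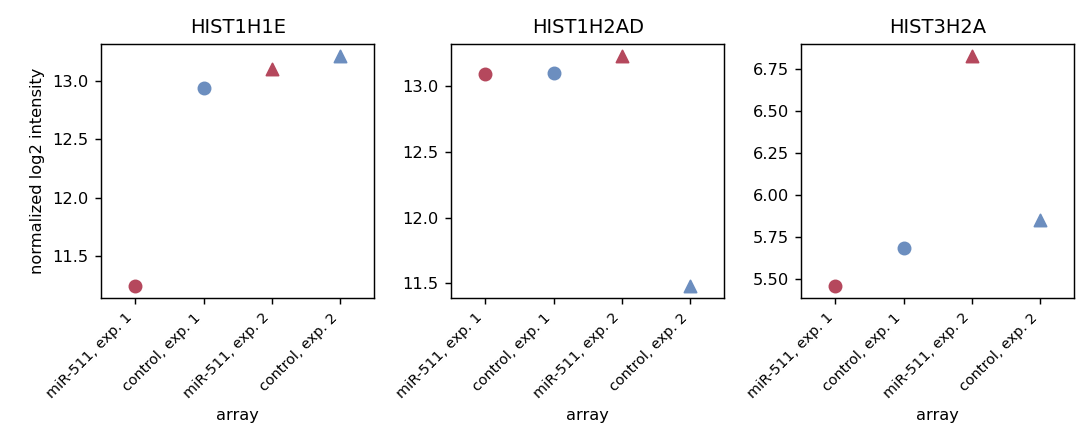
Normalized log2 intensity (y axis, a separate range for each gene) of the 3 histone probes with 1 array more than 1 from the median of the others. Circles are experiment 1, triangles experiment 2, red miR-511-5p mimic and blue control-mimic-#1. In each panel 1 array stands apart, and it is another array in each.

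Other named members with larger log2FC in their class moved in 1 experiment. HIST1H3G had -0.69 in experiment 1 and 0.14 in experiment 2. HIST1H2BI had -0.48 and -0.037, and HIST1H2BO had 0.043 and -0.51. HIST1H3J had -0.0047 and 0.37, and the reading-frame probe of HIST1H4L had -0.47 and -0.083. The array farthest from the others was miR-511-5p mimic of experiment 1 for HIST1H3G, HIST1H2BI and this HIST1H4L probe. It was miR-511-5p mimic of experiment 2 for HIST1H2BO and control of experiment 2 for HIST1H3J. The miR-511-5p array of experiment 1 also had the lowest share of probes well above background (64.8%). None of these log2FC values passed the unadjusted threshold with all 4 arrays. Without the miR-511-5p array of experiment 2, 6 histone probes passed it, among them HIST1H1E (log2FC -1.83), HIST1H3G (-0.65), HIST1H2BI (-0.57) and HIST1H4L (-0.55), and the share of all tested probes past it was then 6.30%.

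The second comparison set experiment 2 against experiment 1, with the 2 treatments as the arrays of each experiment. Each side is thus 1 experiment. The limma p sets the difference against the spread of the 2 treatments within an experiment, not of repeated experiments. Here H4 genes stood out from the other classes in size. In the H4 class 11 of 17 tested probes were past the unadjusted threshold and all 11 were higher in experiment 2, while 5 of 57 probes of the other classes were, also higher. Over all classes this made 16 of 74 probes higher in experiment 2 and 0 lower, against 5.66% of all 22596 tested probes higher and 8.46% lower (14.1% in either direction). With the treatment as a block, 14 histone probes were past the threshold and higher, 10 of them H4, against 4.89% of all tested probes. No probe of the array passed Benjamini-Hochberg adjustment in limma, and the smallest adjusted p of a histone probe was 0.169.

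The median log2 difference, experiment 2 minus experiment 1, was 0.45 for H4, 0.095 for the other histone probes together and -0.010 for all tested probes. By class it was 0.15 for H1, 0.13 for H2A, 0.10 for H2B and 0.035 for H3. The H4 median was 0.54 between the miR-511-5p arrays and 0.43 between the control arrays. All 17 H4 probes were higher in experiment 2 within both treatments, as were 51 of the 74 histone probes and 28.6% of all tested probes. For 48 of the 74 histone probes both arrays of experiment 2 were above both arrays of experiment 1, against 22.6% of all tested probes. Differences between experiments also include day, culture and RNA preparation, which cannot be told apart here, and in bulk RNA a change in the share of cells in S phase cannot be told apart from a change in RNA per cell.

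**Figure D4:**
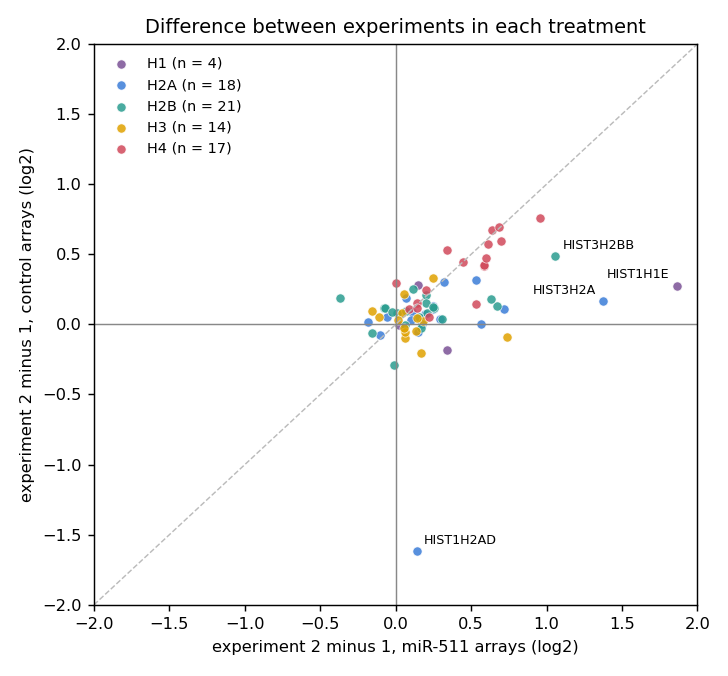
Log2 difference between experiment 2 and experiment 1 on the miR-511-5p mimic arrays (x axis) and on the control-mimic-#1 arrays (y axis) for the 74 tested histone probes, coloured by class. The dashed line marks equal differences. The 17 H4 probes all lie above 0 on both axes, and most of the other classes lie near 0.

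The largest difference in the H4 class was that of HIST1H4F (chr6:26240818-26240877 of hg19). Its log2 values were 11.39 with miR-511-5p mimic and 11.51 with control-mimic-#1 in experiment 1, and 12.35 and 12.28 in experiment 2. The treatments were thus close to each other within an experiment, and both rose. The means were 11.45 ± 0.089 and 12.31 ± 0.050 (SD, n = 2 arrays of 1 experiment each). The difference was 0.86 (standard error 0.084, adjusted p = 0.169 from limma).

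HIST2H4B, in the HIST2 cluster at chr1:149804396-149804455, was at 13.04 and 12.92 in experiment 1 and at 13.73 and 13.61 in experiment 2 with miR-511-5p mimic and control, respectively, a difference of 0.69 (standard error 0.089). HIST1H4I was at 12.08 and 12.01 in experiment 1 and at 12.72 and 12.68 in experiment 2. HIST1H4H was at 12.02 and 12.09 in experiment 1 and at 12.72 and 12.68 in experiment 2. Both of these genes differed by 0.65, with a standard error of 0.072 each. In neither did the arrays of the 2 experiments overlap, which also held for 22.6% of all tested probes in this direction. HIST1H4J rose by 0.54 (standard error 0.076) and HIST4H4 by 0.45 (standard error 0.15), a call lost under 6 alternatives, with 0.15 after normexp correction.

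Where an H4 gene had 2 probes, they did not always move by the same amount. The HIST1H4K probes rose by 0.59 and 0.44 and those of HIST1H4A by 0.50 and 0.23, and all 4 were past the unadjusted threshold. The probe with 0.23 was not past it with the treatment as a block. Of the HIST1H4D probes, which start 49 bases apart, A_33_P3410836 was higher by 0.51 and past the threshold, and A_23_P395374 had a difference of 0.14 and was not. The HIST1H4L probes had differences of 0.34 and 0.13, and neither was past it.

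The other H4 genes that did not pass the threshold were HIST1H4B, HIST1H4C and HIST1H4E. HIST1H4B was at 14.20 and 13.99 in experiment 1 and at 14.20 and 14.29 in experiment 2. HIST1H4E was at 13.96 and 13.93, then at 14.10 and 14.08. Their differences were 0.15 (standard error 0.10) and 0.15 (standard error 0.067), and that of HIST1H4C was 0.10 (standard error 0.083), all in the direction of the class.

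**Figure D5:**
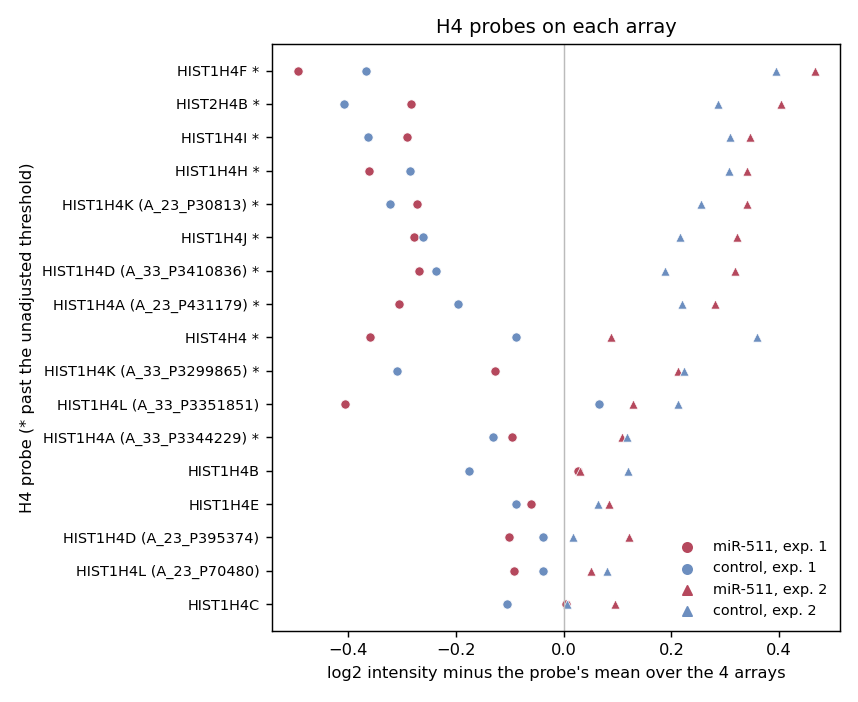
Log2 intensity of the 17 tested H4 probes on each array, minus the mean of the probe over the 4 arrays (x axis), ordered by the difference between the experiments (y axis, with an asterisk for probes past the unadjusted threshold). Circles are experiment 1, triangles experiment 2, red miR-511-5p mimic and blue control-mimic-#1. Triangles lie to the right of circles for every probe, with a narrow gap in the lowest rows, and red and blue mix within each experiment.

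The H4 probes lie on different stretches of the mRNA, and this grouping was made after the values were seen, so it has no test. Of the tested H4 probes, 9 ran across the stop codon of the H4 reading frame, and 4 of these were past the threshold, with differences from 0.10 to 0.59 (median 0.15). A further 7 lay before the stop codon, and 6 of these were past it, with differences from 0.34 to 0.86 (median 0.65). The remaining probe was that of HIST4H4. The median GC content was 53.3% for the tested H4 probes and 53.3% for those of the other classes.

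Of these, 6 probes read the same stretch of the reading frame and are shown because 5 of them were past the threshold. The capitals mark the 22 bases that all 6 cover.
HIST1H4F: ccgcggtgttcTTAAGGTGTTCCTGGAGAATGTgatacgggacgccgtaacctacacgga
HIST1H4H: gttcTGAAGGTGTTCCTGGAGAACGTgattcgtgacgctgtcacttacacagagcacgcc
HIST1H4I: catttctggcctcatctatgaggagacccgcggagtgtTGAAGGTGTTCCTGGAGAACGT
HIST1H4K: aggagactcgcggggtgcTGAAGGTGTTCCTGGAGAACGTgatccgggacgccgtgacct
HIST2H4B: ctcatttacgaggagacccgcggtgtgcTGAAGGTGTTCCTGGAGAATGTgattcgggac
HIST1H4L: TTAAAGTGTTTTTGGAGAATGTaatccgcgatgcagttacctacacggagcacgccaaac
Aligned without gaps to the HIST1H4H probe, those of HIST1H4F, HIST1H4I, HIST1H4K and HIST2H4B matched at 84.9%, 92.3%, 87.0% and 91.7% of the bases in the overlap. The HIST1H4L probe matched at 76.8%, with 5 mismatches within the 22 bases. Its difference of 0.34 had a standard error of 0.18. It was at 9.15 on the miR-511-5p array of experiment 1 and between 9.62 and 9.77 on the other arrays. Whether the similarity of the probes bears on which of them passed the threshold was not tested. With this similarity, RNA of one H4 copy may bind the probe of another, so the rise of a single H4 gene is uncertain, and how far the probes share RNA was not tested.

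Promoters are shown for H4 genes at both ends of the comparison, the 3 with the smallest and the 3 with the largest p among those with an entry in the RefSeq promoter table (GRCh38.p14). The 130 bases before the transcription start are given, with capitals for GGTCCG (the core of the HINFP element of H4 promoters), CCAAT (a box bound by NF-Y), TATAA (the TATA box) and ATTTGCAT (the octamer of H2B promoters) on either strand. HIST1H4F (now H4C6) is at chr6:26240263-26240392, HIST1H4I (H4C9) at chr6:27139152-27139281 and HIST1H4H (H4C8, minus strand) at chr6:26285535-26285664.
HIST1H4F: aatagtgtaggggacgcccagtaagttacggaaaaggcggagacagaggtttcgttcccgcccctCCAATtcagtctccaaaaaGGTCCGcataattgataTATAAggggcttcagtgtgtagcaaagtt
HIST1H4I: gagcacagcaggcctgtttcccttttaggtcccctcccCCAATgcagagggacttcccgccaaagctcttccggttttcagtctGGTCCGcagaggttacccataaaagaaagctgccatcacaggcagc
HIST1H4H: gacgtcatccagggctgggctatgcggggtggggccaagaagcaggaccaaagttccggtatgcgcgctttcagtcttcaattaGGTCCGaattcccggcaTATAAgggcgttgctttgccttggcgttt
The genes that were not past the threshold are HIST1H4E (H4C5) at chr6:26204480-26204609, HIST1H4L (H4C13, minus strand) at chr6:27873535-27873664 and HIST1H4B (H4C2, minus strand) at chr6:26027284-26027413.
HIST1H4E: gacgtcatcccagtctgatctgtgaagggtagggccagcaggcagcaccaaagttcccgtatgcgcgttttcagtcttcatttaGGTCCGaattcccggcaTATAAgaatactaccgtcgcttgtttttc
HIST1H4L: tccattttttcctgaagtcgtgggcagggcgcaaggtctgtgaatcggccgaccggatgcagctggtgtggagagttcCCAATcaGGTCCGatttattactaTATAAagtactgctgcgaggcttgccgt
HIST1H4B: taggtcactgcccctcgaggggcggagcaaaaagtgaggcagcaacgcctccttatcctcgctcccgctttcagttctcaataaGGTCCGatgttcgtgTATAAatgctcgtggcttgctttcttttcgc
All 6 windows hold GGTCCG, whether or not the gene passed the threshold.

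Over the whole 300 bases of the table, from 250 before to 50 after the start, 62 of the 68 member genes had an entry. GGTCCG was in 12 of 13 H4 promoters, in 1 of 14 H2A, 1 of 18 H2B, 1 of 11 H3 and 0 of 6 H1 promoters, and in 11.3% of the 35116 promoters of the table. The H4 promoter without it was that of HIST1H4G, and whether the motif bears on detection was not tested. CCAAT was in 3 of 13 H4 promoters and in every H1, H2A, H2B and H3 promoter with an entry (34.6% of all promoters). The octamer was in 14 of 18 H2B, 10 of 14 H2A, 1 of 11 H3 and no H1 or H4 promoter (1.77% of all promoters). TATAA was in 11 of 13 H4, 5 of 6 H1, 13 of 14 H2A, 17 of 18 H2B and 11 of 11 H3 promoters (20.4% of all promoters).

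Outside H4, the probes past the unadjusted threshold between the experiments were those of HIST3H2BB, HIST1H2AA, HIST2H2AA4, HIST1H3H and HIST1H2BB. HIST3H2BB, of the small HIST3 cluster, was at 6.82 and 7.14 in experiment 1 and at 7.88 and 7.63 in experiment 2, a difference of 0.77 (standard error 0.16). HIST2H2AA4, one of a pair of duplicated H2A genes, was at 10.45 and 10.48, then at 10.77 and 10.78, a difference of 0.31 (standard error 0.067). Neither overlapped between the experiments, which also held for 22.6% of all tested probes in this direction. HIST1H2AA differed by 0.43 and HIST1H2BB by 0.20, the latter not past the threshold with the treatment as a block. Of the 2 probes of HIST1H3H, the one on the stem-loop differed by 0.29, a call lost with 3 of the 4 arrays left out in turn, and the other by 0.095, which was not past the threshold. Among the 6 probes with the stem-loop, 2 were past it, those of HIST1H3H and HIST1H4K.

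Some of the largest differences between experiments did not pass. HIST1H1E had 1.07 (standard error 0.61), HIST3H2A 0.77 (standard error 0.36) and HIST1H2AD -0.74 (standard error 0.62), each with the 1 array apart described above. HIST1H1C, the H1 gene next in size, had 0.21 (standard error 0.079), and it passed the threshold under 6 alternatives, among them 75th percentile scaling (0.25) and normexp correction (0.30).

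H3 had the smallest class median between the experiments, with differences from -0.031 to 0.33 and 4 of 14 probes higher in experiment 2 without overlap, against 22.6% of all tested probes. HIST2H3D, of the HIST2 cluster, lay between 15.20 and 15.41 on the 4 arrays, and HIST2H3A between 14.62 and 14.89. Among the H2A genes, HIST1H2AH lay between 14.00 and 14.17, HIST1H2AJ between 14.59 and 14.73 and HIST1H2AK between 14.55 and 14.66. Among the H2B genes, HIST1H2BL lay between 13.66 and 13.81, HIST1H2BH between 13.06 and 13.27 and HIST1H2BM between 12.41 and 12.61. The H4 probe of HIST1H4L across the stop codon lay between 15.43 and 15.60. These probes were chosen for their high level. In HIST1H2AJ both arrays of experiment 2 were the lower ones.

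Some genes of the other classes had several probes, which can lie far apart. The HIST1H2AC probes, which span 14419 bases of hg19, differed between the experiments by -0.00026 to 0.28, and those of HIST1H2BK, 8246 bases apart, by 0.031 and 0.047. The HIST2H2BE probes, 1037 bases apart, differed by 0.033 and 0.082. Of the 3 HIST2H2BF probes, 1 is annotated to another transcript and lies 386438 bases from the farthest of the others. Its difference was 0.18, and those of the others were -0.15 and -0.11. Whether the 3 probes measure RNA of the same locus was not tested. The HIST1H2AM probes, 70 bases apart, differed by 0.089 and 0.13. Of these probes none was past the unadjusted threshold in either comparison, while 1 of the 2 HIST1H3H probes was past it between the experiments, as given above.

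Genes that work with the histone genes were read from lists. None of the 16 probes of variant and replication-independent histones, 13 of transcription and 3′ end processing factors, 19 of histone chaperones and 20 of S phase markers was past the unadjusted threshold between the treatments. Over the array, 2.2% of all tested probes were. Between the experiments, 1 variant histone probe, 0 processing, 1 chaperone and 0 S phase probes passed that threshold. Both were higher in experiment 2, and 5.66% of all tested probes passed it in that direction. The 2 probes were the dimmer H3F3B probe, for the replacement histone H3.3 (0.42, standard error 0.10, against 0.085 for the brighter probe), and a probe of NASP, a chaperone of H1 and H3-H4 (0.38, standard error 0.12). SLBP had 0.065 between the treatments and 0.063 between the experiments, and NPAT had 0.068 and -0.0046. HINFP had 0.030 and -0.084. The median difference between the experiments was 0.11 for the S phase probes and -0.010 for all tested probes. It was 0.45 for H4 and 0.095 for the other histone probes together. The part of the S phase genes in the H4 difference was not tested.

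The identity of the cells was read from marker lists. All 10 myeloid marker genes on the array were well above background on all 4 arrays, and 0 of 3 epithelial and 0 of 3 fibroblast genes were on any array. Of the T cell, B cell and erythroid genes, 2 of 4, 2 of 3 and 2 of 2 were well above background on all 4. Their summed levels on the log2 scale spanned 7.23 to 7.38, 10.66 to 10.78 and 6.96 to 7.37 over the arrays, and that of the myeloid markers 16.29 to 16.47. Between the experiments, the myeloid markers CSF1R (-0.25), CD68 (-0.29) and FCER1G (-0.21) were lower in experiment 2 past the unadjusted threshold and the T cell marker CD3D (0.21) was higher. Of all tested probes, 8.46% were lower past it and 5.66% higher. With the treatment as a block, CSF1R, FCER1G and CD3D did not pass. A CD2 probe was also past the threshold, but its signal was not well above background on 1 array of experiment 1, so no size is given. Their part in the H4 difference was not tested.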

How the data were processed

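THP1 cRNA of 4 arrays was measured on single-dye Agilent arrays with 60-base probes annotated on hg19. The authors deposited scanner output (Agilent Feature Extraction; version 10.5.1.1 in the submitters' processing notes, 10.7.3.1 in the file header) with processed intensity per spot, background-subtracted and not normalized between arrays. A quantile-normalized log2 table that the authors deposited as well served as an alternative. The number of arrays limits the precision.

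In R 4.3.3, the log2 of the intensity of non-control spots was taken, between 232 and 301 spots per array marked as outliers by the scanner software were left out, arrays were quantile normalized and the spots of a probe averaged. A probe counted as above background when more than 50% of its spots were well above it. A probe entered the test when both arrays of 1 group or more were well above background for it. Differences were tested with limma 3.58.1 (lmFit, eBayes, two-sided) over all tested probes, with an unadjusted p below 0.05 and Benjamini-Hochberg adjustment. The study used that threshold with a further condition over identical replicate probes, which was not applied, since each member is printed once. An exact permutation test of 2 against 2 arrays cannot give a p below 0.333. The labels number the arrays by experiment, which pairs them. The deviations of the 2 arrays of an experiment, each taken from the mean of its treatment, correlated at 0.271 over 22638 probes and at 0.383 over the 74 histone probes. The interaction of treatment and experiment leaves no residual degrees of freedom and was not tested. All arrays were on 1 slide, so no slide block was run. Values for replicate spots, known for 395 bright probes printed 10 times, had a median SD of 0.062 within an array.

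Members and gene lists were chosen with earlier results of these data known. A fixed rule named members past the unadjusted threshold, and per class the 3 with the highest mean and the 2 with the largest differences. It also named the testis-type members, SLBP, NPAT and list genes past the threshold. Outside this rule, HIST1H1B, undetected members, members with several probes, H4 genes not past the threshold and members with a shown sequence are named. HINFP and the marker counts were added after values were seen. Current names came from RefSeq (GRCh38.p14), where all 68 genes matched, 77 probes by accession and 3 by synonym. The functions were tested on simulated data. Alternatives were normexp background correction with an offset of 50, scaling to the 75th percentile, other filters, marked spots kept, the deposited table, an intensity trend, a block for the experiment or treatment, an equal-variance test of averaged probes without moderation and leaving out each array. After seeing the data, H4 as a group of its own and leaving out probes with 1 array apart were added.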

Additional observations from a re-analysis of the deposited data

Results flagged for a closer look

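The median log2 difference between miR-511-5p mimic and control-mimic-#1 had opposite signs in the 2 experiments for the histone probes. It was -0.029 in experiment 1 and 0.035 in experiment 2 over all 74 tested probes. In the H2A class it was -0.053 in experiment 1 and 0.069 in experiment 2. In the H4 class it was -0.018 and 0.038. With 1 array per treatment and experiment, this difference between the experiments was not tested.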

How the results depend on the processing

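Between the treatments, the count of histone probes past the unadjusted threshold, 0 of 74, was 1 after normexp background correction, with an intensity trend, with an equal-variance test without moderation and with the replicate block that pairs the arrays, and 2 without a filter on dim probes. The share of all tested probes past it was 1.17%, 1.26%, 3.13%, 3.95% and 3.02% in these settings. Leaving out each array in turn gave 0 to 6 probes, the 6 without the miR-511-5p array of experiment 2, with 3.01% to 6.30% of all tested probes, and medians from -0.091 to 0.096. With the other alternatives it was 0. Where an array is left out, the lone array of a group is assumed to vary like the pair. Between the experiments, counts over all classes lay between 12 and 21 under all alternatives, with 3.41% to 7.94% of all tested probes higher. The H4 count lay between 9 and 11, its median was 0.33 after normexp correction and 0.44 to 0.55 with each array left out, and no alternative reversed it. Of single members under the alternatives, 11 results between the treatments newly passed the threshold and 483 kept their side. Between the experiments, 27 lost it, 14 gained it and 415 kept their side, and no called difference changed sign. HIST4H4 and HIST1H2AA lost it after 75th percentile scaling (log2 differences 0.41 and 0.37), after normexp correction (0.15 and 0.081) and with an intensity trend. HIST4H4 also lost it with no filter and without the miR-511-5p array of experiment 1 or the control array of experiment 2, and HIST1H2AA without the miR-511-5p array of experiment 2. HIST1H3H A_33_P3404989 lost it with any array left out except the miR-511-5p array of experiment 2. HIST2H2AA4 (0.30) and HIST1H4K A_33_P3299865 (0.43) lost it without the control array of experiment 2. HIST1H2BB lost it with any array left out, with the treatment as a block, with no filter and after normexp correction. HIST1H4A A_33_P3344229 lost it with any array left out and with the treatment as a block. Detection on all 4 arrays was 74 probes, or 76 by the scanner's flag for positive and significant signal. No histone probe passed adjustment under any alternative.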

Other observations

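Besides the probes named as clustered histones, 3 features carry an Ensembl transcript in place of a gene name and are described in the files as histone cluster transcripts. The one described as HIST1H4c, A_33_P3378880, at chr6:26104130-26104189 of hg19, was at 9.55 with control-mimic-#1 in experiment 1 and at 10.31 to 10.41 on the other arrays. The one described as HIST2H2aa4, A_33_P3253214, had a difference of 0.22 between the experiments (standard error 0.096), and the one described as HIST1H2ai, A_33_P3393135, had -0.067 (standard error 0.12). Neither was past the unadjusted threshold of limma.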
